A study of Mus musculus with 1479 samples.

Results

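The ribosomal protein genes of the cytosolic ribosome were measured in 1479 single cells of the mouse bladder. They were taken by symbol: protein-coding genes named Rpl or Rps and a number, with an optional final letter a, x or l and number, together with Rplp0, Rplp1, Rplp2 and Rpsa, and without symbols ending in -ps. This gave 83 members among 46517 gene entries, of which 51 belong to the large and 32 to the small subunit. Mitochondrial ribosomal proteins (Mrpl, Mrps), and Fau, whose ribosomal protein is made fused to a ubiquitin-like part, lie outside the rule.

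Ribosomal proteins assemble with ribosomal RNA into the subunits that translate messenger RNA. The small subunit reads the message and the large subunit joins the amino acids, and each subunit holds its proteins in fixed numbers. Many of these messages begin with a run of pyrimidines after a first C, the 5′ terminal oligopyrimidine (TOP) start, through which mTOR signalling sets how strongly they are translated, a step that counts of RNA do not see. Most members are used by every cell, and a few have a second copy that is mainly known from muscle or the germ line.

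The cells came from male mice of 10 to 20 weeks of 5 lines and were sorted into plates after cells with the endothelial surface protein CD31 were left out. Acta2GFP mice carried Tg(Acta2-GFP) (8.72% of the cells), Cspg4dsRED mice Tg(Cspg4-DsRed.T1) (13.7%), PdgfrbGFP mice Tg(Pdgfrb-eGFP) (54.8%) and PdgfraGFP mice a knock-in of H2BGFP at Pdgfra (9.94%), so that each reporter marks the cells in which the promoter of that smooth muscle, pericyte or fibroblast gene is active, while the cells of C57BL6 mice without a reporter (12.8%) were sorted by antibody. Smart-seq2, a full-length RNA method without molecular identifiers, was run on 6 plates, which with the lines make 8 groups of plate and line, and the labels place each cell in 1 of 11 clusters. The study calls cluster 10 mural cells, those around vessels, and the others fibroblasts, with cluster 5 lying under the epithelium. No group was treated. The labels name no animal, so a line or a group of plate and line was the replicate, p-values measure the spread between these, and line, sort and plate cannot be told apart where a line fills 1 plate. The study also used crosses of its strains, so cells of different lines may share an animal, and every n over lines takes the lines as independent. Clusters were made by the study from the same cells' values, so their differences are no independent evidence of the clusters.

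Depth ran from 48455 to 1433402 endogenous reads per cell, with a median of 212483, and plate bladder_515s stood apart with short messages low, as given below. The 9 mural markers, led by Acta2, Myh11 and Tagln, were each higher in cluster 10 (9 of 9 called by edgeR) and the 9 fibroblast markers, led by Col1a1, Fbln1 and Col1a2, were each lower there (9 of 9 called). Among the fibroblast clusters, cluster 4 stood apart: its 9 fibroblast markers took 1.84% of reads, against 3.19% or more in the others, and 6 Schwann cell markers 0.0154%, against at most 0.00211% in any other cluster (means over lines, 2 lines for cluster 4). It has 23 cells, and edgeR called 0 of the 2 Schwann markers tested among the clusters, with 0 at an unadjusted p under 0.05. Its part in the members' values was not tested.

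The members took a median of 2.25% of the endogenous reads of a cell, from 0.269% to 9.65%, and 2.41% of all reads summed. Large subunit members had 1.35 reads for each read of small subunit members, and this ratio ran from 1.304 to 1.598 over the 8 groups of plate and line, and from 1.27 to 1.47 over the 11 clusters, whose cells come from the plates in different parts. Of the 83 members, 77 had a read in more than 90% of cells and 80 had at least 1000 reads in all. The 10 members with the most reads held 30.9% of the members' reads. A level below is the mean over cells of a gene's reads per 500000 endogenous reads and, where genes are compared, is divided by the exon length in kb of 1 reference transcript per gene.

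Among the highest members per exon length were Rps14, Rplp1, Rps9 and Rpl8. Rplp1, one of the acidic proteins of the stalk that recruits elongation factors, had a level per kb of 600.4 in PdgfraGFP, 575 in C57BL6, 442.96 in PdgfrbGFP, 361 in Cspg4dsRED and 243.2 in Acta2GFP cells, a mean of 444 ± 149.1 (SD, n = 5 lines). Acta2GFP cells, all of plate bladder_515s, were lowest and PdgfraGFP cells highest. Rps14, in the platform of the small subunit, had 456 ± 130.6, Rps9 436 ± 143.6 and Rpl8 387 ± 104.2 per kb, so the means of these 4 members lay within 1 SD of each other. Rpl4, which lines the exit tunnel, had the most reads of any member with 4.84% of the members' reads and a level per kb of 378 ± 37.7.

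The 80 members with at least 1000 reads had a median level per kb of 142.4 and spread widely around it, although the ribosome holds most of these proteins in equal number. Rplp0, the stalk base, had a level per kb of 333.3 ± 48.5 against 444 ± 149.1 for Rplp1 and 120 ± 47.4 for Rplp2, its partners in the stalk. Rpl5 and Rpl11, which with 5S ribosomal RNA bind Mdm2 when ribosome assembly fails, had 39.6 ± 8.16 and 108.2 ± 41 per kb. The lowest members were Rpl3l, Rpl10l and Rpl39l, described with the second copies below, then Rpl7l1 with 10.3 ± 2.65 and Rps15a with 17.6 ± 8.25 per kb. The reference transcript of Rps15a is 5179 bases long, and per coding kb it ranked 39 rather than 79, so its place near the bottom follows from that length. The order of the 80 members was shared widely: Spearman's rho between groups of plate and line ran from 0.809 to 0.984 (median 0.914), and between clusters from 0.864 to 0.993 (median 0.961). These are correlations across genes, which are not independent replicates, and the groups share the genes' lengths and, in part, plates.

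**Figure D1:**
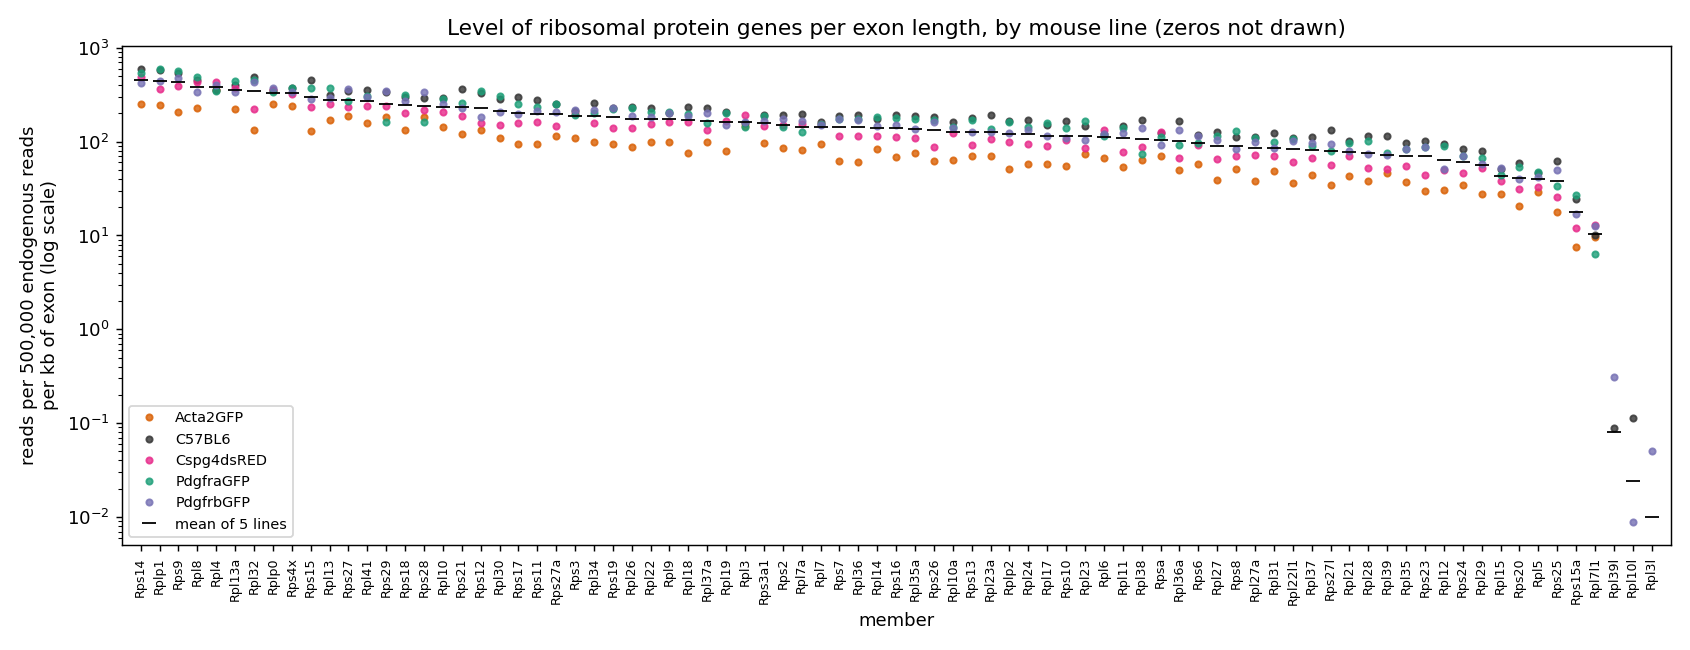
Each point is the level of a member in 1 mouse line in reads per 500000 endogenous reads per kb of exon (log axis), with a black bar at the mean of the 5 lines and members in order of that mean. Rps14 has a mean of 456 and Rpl3l, the lowest, 0.00998, while lines in which a member is at 0 and members not reported here are not drawn.

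Of the members, 6 carry the name of another member with a final l or l1, and they are shown, with the namesakes of 4 of them, because the levels given next set these copies beside each other. The promoter sequences are from RefSeq on GRCm38.p6, which held 63 of the 83 members, and run 5′ to 3′ from 30 bases before the start of transcription to 20 bases from it on, with a pyrimidine run that meets the TOP rule in capitals. The rule asked for at least 5 bases of C or T in a row, the first a C, that begin within 5 bases of the start, on the strand of the gene. RefSeq gives 2 starts for Rpl22, Rpl3l and Rps27l, and the one with a run, otherwise the first listed, is printed.
Rps27, chr3:90213629-90213678, minus strand: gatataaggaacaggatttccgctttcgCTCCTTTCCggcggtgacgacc
Rps27l, chr9:66946056-66946105, plus strand: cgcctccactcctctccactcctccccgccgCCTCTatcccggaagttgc
Rpl22, chr4:152325696-152325745, plus strand: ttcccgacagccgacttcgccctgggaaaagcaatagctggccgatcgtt
Rpl22l1, chr3:28805478-28805527, plus strand: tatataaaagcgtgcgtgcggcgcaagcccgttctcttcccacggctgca
Rpl10, chrX:74270786-74270835, plus strand: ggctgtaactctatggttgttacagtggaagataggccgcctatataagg
Rpl39, chrX:37085203-37085252, minus strand: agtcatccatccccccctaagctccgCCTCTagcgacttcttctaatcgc
Rpl7l1, chr17:46782637-46782686, minus strand: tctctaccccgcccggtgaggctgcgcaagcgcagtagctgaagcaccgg
Rpl10l, chr12:66284382-66284431, minus strand: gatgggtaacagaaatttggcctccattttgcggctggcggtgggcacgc
Rpl39l, chr16:10170198-10170247, plus strand: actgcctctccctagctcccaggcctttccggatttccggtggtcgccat
Rpl3l, chr17:24727796-24727845, plus strand: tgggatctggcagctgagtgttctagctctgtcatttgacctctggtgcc

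A run by this rule stood at the start of 17 of the 63 matched members (26.98%), against 14.5% of 27025 gene symbols in the same table. A looser rule took any C within 5 bases of the start that opens 5 pyrimidines in a row, whatever stands before it. By that rule the shares were 46.03% of the members and 21.2% of all symbols. A match is a description of the letters in this window and no match says only that the letters are not there.

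Rpl22l1, a close relative of Rpl22 whose balance with it is known to differ between tissues, stood at 46.2% ± 8.61 of the level of Rpl22 per kb (SD, n = 5 lines), from 36.01% in Acta2GFP to 56.4% in PdgfrbGFP cells. Of all cells, 86.7% had a read of it. Between plates of 1 line the ratio moved further than between lines: among PdgfrbGFP cells it was 45.6% on plate bladder_074s, 29.2% on bladder_515s and 74.2% on bladder_881s. Rps27l, a copy of Rps27 known as a target of p53, stood at 27.6% ± 7.59 of Rps27, with reads in 82.1% of cells, and ran over the same plates at 17.2%, 16.6% and 38.7%. Rpl7l1, which works in the assembly of the large subunit rather than in the finished ribosome, stood at 7.50% ± 2.33 of Rpl7, with reads in 52.7% of cells. Rpl22l1, Rps27l and Rpl7l1 were thus measured in every line, and below their namesakes in each. Over the 11 clusters Rpl22l1 ran from 33.1% of Rpl22 in cluster 9 to 72.2% in cluster 2, and Rps27l from 11.7% of Rps27 in cluster 4, which has 23 cells, to 35.9% in cluster 10. These values pool plates, and the clusters differ in their plates. Cluster 9 came mostly from plate bladder_352s, where Rpl22l1 stood at 34.1% of Rpl22 in its 85 cells against 36.3% in the other clusters of that plate. In groups of plate and line with at least 10 cells, Rpl22l1 was higher in cluster 2 than in the other clusters in 3 of 3 groups, at 58.8% to 133.04% against 43.6% to 50.9%, and in cluster 5 in 3 of 3, at 68.5% to 79.1% against 45.7% to 73.8%, and lower in cluster 3 in 6 of 6, at 25.8% to 64.1% against 31.6% to 76.3%. Rps27l was lower in cluster 8 in 7 of 7 groups, at 8.13% to 32.3% against 17.4% to 40.3%. In cluster 10 Rps27l was higher in 5 of 5 groups, at 20.6% to 51.9% against 16.1% to 38.7%, with the values of 38.9% and 38.7% on plate bladder_881s close together. No test was run on these ratios. Such copies share sequence with their namesakes, and how the counting treated reads that match several genes is not given in the sources used here, so the split within a pair is uncertain.

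The other copies were close to the bottom of detection. Rpl3l, the form of striated muscle, had 43 reads in 3 cells, 41 of them in 1 PdgfrbGFP cell of cluster 7. Rpl10l, the autosomal form that stands in for X-linked Rpl10 in male germ cells, had 17 reads in 3 cells, 15 of them in 1 C57BL6 cell of cluster 5. Rpl39l, also a germ cell form, had reads in 25 cells, and 80 of them were in 1 cell. Each therefore rested on few cells, and their levels were under 0.2% of those of Rpl3, Rpl10 and Rpl39 on average.

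Cells of the same plate, line and cluster that had more of 1 member tended to have more of the others. Over 13 such groups of 41 to 99 cells, each cell thinned to 50000 reads, the Spearman correlation of a member with the sum of the other members had a median over members of 0.392, from 0.213 to 0.611 over groups. For a list of 19 translation factors and other TOP genes the median was 0.176, from 0.128 to 0.254, and for up to 6 other genes it was 0.0188, from -0.05 to 0.188. Among these other genes Dcn followed the members about as closely as some members did, with a median of 0.313 over the 13 groups. The rest had medians of 0.0855 or less. In the 49 Cspg4dsRED cells of cluster 10 on plate bladder_352s the medians lay close, at 0.213 for the members, 0.207 for the translation list and 0.188 for 4 other genes. The cells share a plate, a sort and base composition, so these are descriptions. Rpl13 (0.589) followed the other members most closely, and Rpl7l1 least, at -0.02 over the 3 groups in which enough cells had a read of it, then Rps27l (0.144) and Rpl29 (0.163). The genes of the translation list nearest to the members were Tpt1, a growth-related TOP gene, with 0.473, and Fau, a ribosomal protein gene that the symbol rule does not take, with 0.451.

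The summed share differed more between plates than between most clusters. Per cell it averaged 2.35% ± 0.596 (SD over cells) in PdgfrbGFP cells of plate bladder_074s, 1.23% ± 0.482 in those of bladder_515s and 3.18% ± 0.782 in those of bladder_881s. Acta2GFP cells, all on plate bladder_515s, averaged 1.33% ± 0.517, close to the PdgfrbGFP cells beside them on that plate and unlike those on the other plates. C57BL6 cells of plate bladder_443s averaged 2.80% ± 1.04, PdgfraGFP cells of bladder_689s 2.61% ± 1.03, and Cspg4dsRED cells 1.98% ± 0.740 on bladder_352s and 2.39% ± 0.971 on bladder_689s. The ranges of single cells overlapped between all 8 groups.

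Within the PdgfrbGFP line, 80 of 80 members had a lower level in fibroblast cells of plate bladder_515s than of bladder_074s, with a median log2 ratio of -1.06, from -1.79 for Rpl36 to -0.01 for Rpl3. On plate bladder_881s 73 of 80 were higher than on bladder_074s, with a median of 0.57, from -0.37 for Rpl7l1 to 1.5 for Rpl22l1. Between lines on the same plate, Acta2GFP over PdgfrbGFP cells of bladder_515s, the median was 0.17 with 69 of 80 higher. The plates held 1 group of this line each, so no test was run. Other genes moved with length on these plates: of protein-coding genes that are no members, those of at most 500 bases had a median log2 ratio of -1.54 on bladder_515s over bladder_074s, those of 500 to 800 bases -1.59, and those of 2000 to 4000 bases -0.13. Members of the same lengths stood at -1.05, -1.07 and -0.63. Short members were thus less reduced than short other genes, and the 3 members of 2000 to 4000 bases more. How much of the members' difference between plates belongs to their length was not tested.

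**Figure D2:**
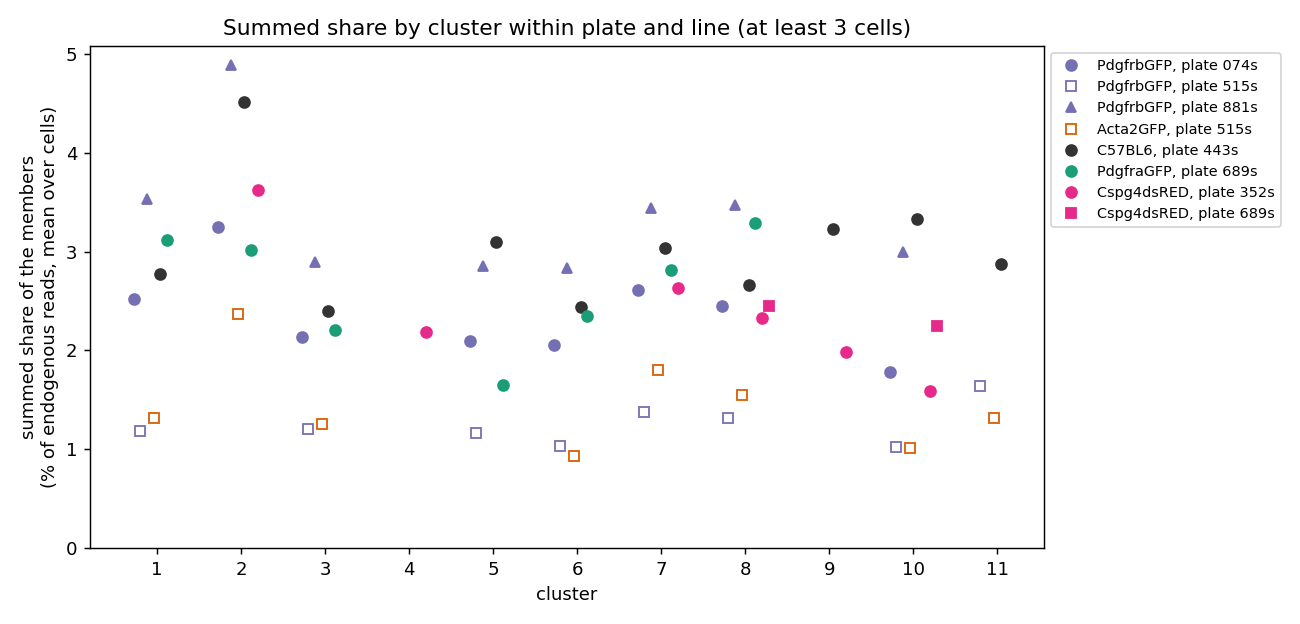
Mean summed share of the members (% of endogenous reads) in each cluster, 1 point for each group of plate and line with at least 3 cells, coloured by line, with open squares for plate bladder_515s. Both groups of plate bladder_515s lie at the bottom in the clusters they share with others, from 0.937% to 1.80% outside cluster 2, where the 3 Acta2GFP cells stand at 2.37%, and plate bladder_881s lies near the top.

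The share also moved with depth. In the cells of the 9 fibroblast clusters 1 to 4, 6 to 9 and 11, it changed by -0.283 ± 0.340 percentage points per doubling of reads (SD, n = 8 groups of plate and line), by -0.177 to -0.290 in 6 groups, by -1.08 on plate bladder_881s and by 0.0891 in the 9 Cspg4dsRED cells of plate bladder_689s. Within clusters the slope was below 0 in all 8 groups, and -0.905 on bladder_881s. Deeper cells thus had a lower share, although depth and the cell's own RNA content cannot be told apart here. On a log2 scale the reads of a member rose by a median of 0.853 per doubling of depth, from 0.588 to 1.09, with 70 of 80 members below 1. The study removed what it calls doublets from the alignments, without stating whether these were duplicate reads, and without molecular identifiers a short, abundant message can fill its positions, so the reads per exon base were also taken. Rps9 passed 0.5 reads per base in 15.5% of cells and Rpl32 in 12.98%, with at most 1.08 reads per base of Rps9 in any cell, and 48 members passed it in none, all 48 tied at the bottom. Spearman's rho between a member's slope and its median reads per base was -0.05 over the members.

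Mural cells were first set against fibroblasts. In cluster 10 the summed share was lower in 3 of 4 lines: 1.015% against 1.36% in Acta2GFP, 1.75% against 2.17% in Cspg4dsRED and 1.97% against 2.39% in PdgfrbGFP cells, but 3.33% against 2.79% in C57BL6, where cluster 10 has 3 cells. The mean difference was -0.162 ± 0.466 percentage points (SD, n = 4 lines), within the spread between lines, and -0.395 without C57BL6. By plate and line it was lower in 6 of 7 groups, with a mean of -0.249 ± 0.373. After adjustment for the slope on depth described above it was -0.304 ± 0.404 (n = 4 lines). The direction turned in other settings, to 0.0726 percentage points over 3 lines without plate bladder_515s and to 0.0023 where reads were summed over cells before the share was taken. Both settings pool plates within the PdgfrbGFP and Cspg4dsRED lines. By plate and line only the C57BL6 group lay above 0, at 0.534, and the other groups lay between -0.573 and -0.203.

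No member was called between cluster 10 and the fibroblast clusters in edgeR's quasi-likelihood test on reads summed per line (0 of 80 members called at an adjusted p under 0.05, against 6.38% of 16092 genes tested). At an unadjusted p under 0.05 there was 1, and DESeq2 called 0 of 80, with 0 at an unadjusted p under 0.05, against 18.6% of genes. That 1 was Rpl4, named after its values were seen, with levels of 514 in cluster 10 against 551 in Acta2GFP, 153.98 against 549 in C57BL6, 516 against 736 in Cspg4dsRED and 436 against 629 in PdgfrbGFP cells. It lay lower in 4 of 4 lines, by a log2 fold change of -0.79 (SE 0.38, edgeR p = 0.0476, adjusted p = 0.219), and the C57BL6 value rests on the 3 cells. The standard errors of the members ran from 0.37 to 1.27 on the log2 scale with a median of 0.63, and the 95% interval lay within 1 log2 unit of 0 for 2 of 80, so differences of that size would not have been detectable for most members. The median log2 fold change of the members was -0.23, beside -0.93 over all genes tested. It was 0.07, beside -0.70, with median-of-ratios size factors, and 0.70 with the median gene set at 0. These settings move all genes together, so the sign follows the scaling and no direction can be given for the members as a group. In each of them the members' median lay above that of all genes. By level, 20 of 80 members were lower in all 4 lines and none was higher in all, without a count over all genes to set beside it.

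The spike-in RNA that was added in equal amount to each well gives another scale. Members' reads per spike-in read were lower in cluster 10 than in fibroblasts other than cluster 5 of the same plate and line in 7 of 7 groups, with a median ratio of 0.506, from 0.334 to 0.613. All endogenous reads together were lower too, in 7 of 7 groups, at a median ratio of 0.694, from 0.433 to 0.859. Reads from mitochondrial genes took a larger share in cluster 10 in 7 of 7 groups. Fewer RNA molecules per cell and a lower yield of the reaction cannot be told apart by this ratio.

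Related genes were counted by list. Of 19 translation factors and other TOP genes 0 were called in cluster 10 (median log2 fold change -0.43), and of 22 ribosome biogenesis genes 0 were called (median -0.60), each with 0 at an unadjusted p under 0.05 in edgeR. Of 8 immediate-early genes, which rise within minutes of a stimulus such as tissue dissociation, 3 were higher in cluster 10, Atf3, Fos and Jun. Of 8 endothelial markers 5 had a higher mean level in cluster 10, and their summed level ran from 13.9 to 232.1 reads per 500000 there against 37.7 to 60.3 in the fibroblast clusters, higher in 2 of 4 lines. The 1 that edgeR called went the other way: Tek, a receptor of angiopoietins, was lower in cluster 10 by a log2 fold change of -5.38 (adjusted p = 0.036). Their part in the members' values was not tested.

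Cluster 5, the fibroblasts under the epithelium, was set against the other fibroblasts. The summed share was 1.66% against 2.78% in PdgfraGFP, 2.00% against 2.17% in Cspg4dsRED, 2.47% against 2.38% in PdgfrbGFP and 3.09% against 2.77% in C57BL6 cells. It was lower in 2 of 4 lines, by a mean difference of -0.220 ± 0.635 percentage points (SD, n = 4 lines), and without PdgfraGFP the difference was 0.0805. By plate and line it was lower in 4 of 5 groups, with a mean of -0.307 ± 0.529. Mitochondrial genes took a larger share of the reads in cluster 5 in 5 of 5 groups, and members' reads per spike-in read had a median ratio of 0.926, below 1 in 4 of 5. The summed level of the 9 mural markers was higher in 4 of 4 lines, at 435 to 753 reads per 500000 against 64.5 to 168.4. Of the 9 markers 6 had a higher mean level in cluster 5, while Rgs5, Des and Kcnj8 were lower there. Acta2, the actin of smooth muscle, had the highest mean level of them, at 484 against 57.9, and was the 1 that edgeR called. The part of these in the members' difference was not tested. In the PdgfrbGFP line the direction depended on whether plates were pooled. Pooled over plates, 63 of 80 members were higher in its cluster 5, but within plates bladder_074s, bladder_515s and bladder_881s, 64, 50 and 71 of 80 were lower.

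In the test across genes no member was called for cluster 5 (edgeR, 0 of 81, against 0.935% of 16145 genes). At an unadjusted p under 0.05 edgeR found 0 and DESeq2 0, and DESeq2 called 0, against 8.83% of genes. The median log2 fold change of the members was -0.31, beside -0.77 over all genes tested, and it became 0.45 with the median gene set at 0. The median standard error was 0.45, and 27 of 81 intervals lay within 1 log2 unit of 0. Of the translation list 0 of 19 and of the biogenesis list 0 of 22 were called (0 and 0 at an unadjusted p under 0.05), while Nr4a1 and Egr1 of the 8 immediate-early genes were lower in cluster 5. Of 9 fibroblast markers 6 were called, 2 higher (Col1a1 and Col1a2) and 4 lower, led by Cd34.

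**Figure D3:**
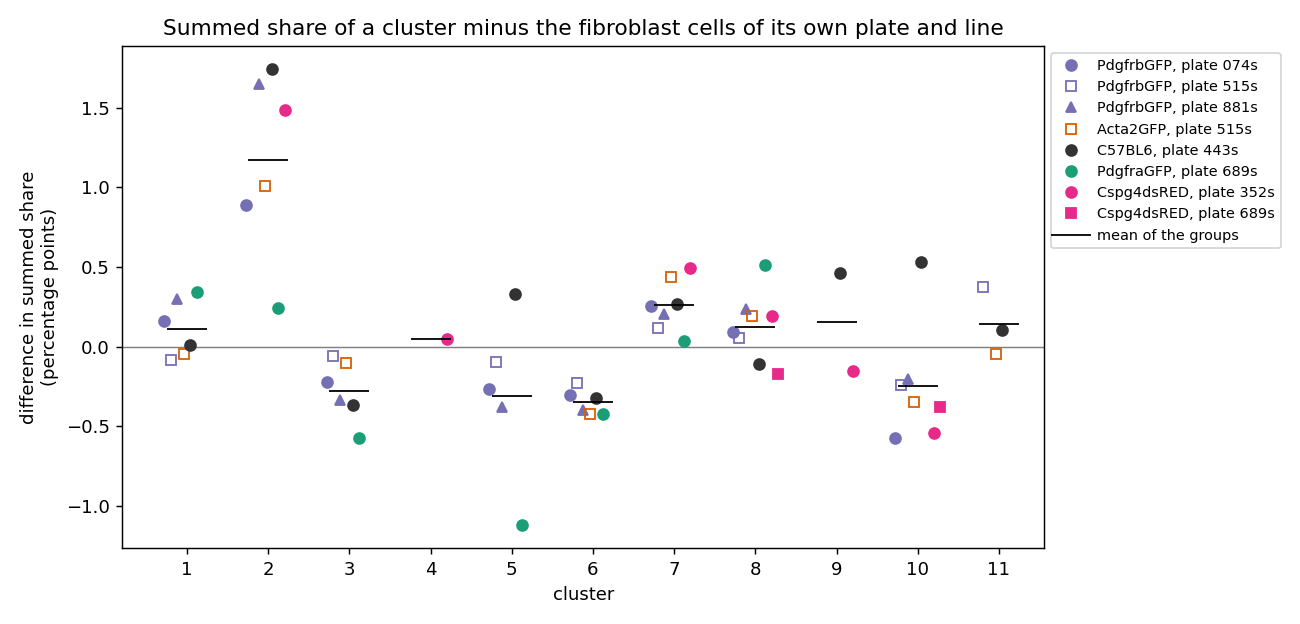
Difference in the summed share (percentage points) between a cluster and fibroblast cells of the same plate and line, 1 point per group with at least 3 cells and a black bar at their mean. Cluster 10 is set against all other clusters and each other cluster against the 9 clusters 1 to 4, 6 to 9 and 11, and cluster 2 lies above 0 in 6 of 6 groups.

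Among the 9 other fibroblast clusters, cluster 2 (64 cells) stood highest. Its summed share was 4.51% against 2.77% for all cells of the 9 clusters in C57BL6, 3.81% against 2.38% in PdgfrbGFP, 3.16% against 2.17% in Cspg4dsRED, 3.02% against 2.78% in PdgfraGFP and 2.37% against 1.36% in Acta2GFP cells. It was higher in 5 of 5 lines, by 1.08 ± 0.564 percentage points (SD, n = 5 lines), and in 6 of 6 groups of plate and line, by 1.17 ± 0.570. By line, cluster 3, the largest cluster, stood lowest, by -0.364 ± 0.196 in 4 of 4 lines, and it was lower in 6 of 6 groups of plate and line by -0.276 ± 0.191. Its members' reads per spike-in read were higher than in the other 8 clusters, with a median ratio of 1.06, from 1.03 to 1.13, in 6 of 6 groups, and its endogenous reads per spike-in read were higher too, at 1.205, from 1.12 to 1.29. Cluster 7 was higher in 5 of 5 lines by 0.298 ± 0.171 and in 7 of 7 groups, and cluster 6, the lowest by plate and line, was lower in 6 of 6 groups by -0.349 ± 0.0777 but in 4 of 5 lines by -0.122 ± 0.442. The line above 0, Cspg4dsRED at 0.625, rests on 3 cells of cluster 6, 1 on plate bladder_352s and 2 on bladder_689s. Between the highest and lowest cluster by line the means differed by 1.45 percentage points. After adjustment for the slope of the share on depth, cluster 2 stood 0.900 ± 0.530 above all cells of the 9 clusters, its own included. In PdgfraGFP cells the adjusted difference was 0.0951, from 0.242 before. The slope used was fitted over the cells of the 9 clusters together, so it also takes in differences between clusters, those of cluster 2 included. In PdgfraGFP cells it was -0.225, against -0.101 within clusters, and an adjustment with the slope within clusters was not made.

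Single members differed among these clusters in edgeR's F test over all cluster terms: 5 of 80 were called, against 2.54% of 14776 genes, and 37 had an unadjusted p under 0.05. All 5 were highest in cluster 2. They were Rps14 (adjusted p = 0.0238), Rpl32 (0.0263), Rps7 (0.0288), Rpl24 (0.0373) and Rps19 (0.0477), with fitted log2 differences of cluster 2 from the mean of the clusters of 1.07, 1.29, 1.33, 1.55 and 1.16. Rps19, the gene most often altered in Diamond-Blackfan anaemia, and Rps7 act in small subunit maturation, and Rpl24 and Rpl32 belong to the large subunit. Rpl32 lies at chr6:115805505-115808747 on the minus strand, Rps7 at chr12:28630854-28635953 on the minus strand, Rpl24 at chr16:55966275-55971435 and Rps19 at chr7:24884371-24889806 on the plus strand (GRCm38, GENCODE M21).

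Rpl24 had levels of 235.05 in cluster 2 against 86.02 in the other 8 clusters in PdgfrbGFP, 220.5 against 104.97 in C57BL6, 178.2 against 58.1 in Cspg4dsRED, 154.7 against 90.3 in PdgfraGFP and 92.04 against 38.5 in Acta2GFP cells. Each line was higher in cluster 2, and of its 5 values only that of Acta2GFP lay below the highest value of the other clusters. Rps7 had 367 against 160.7, 337.96 against 162.2, 173.9 against 117.7, 230.9 against 160.7 and 124.04 against 60.3 in the same order of lines. Rps14 had 446 against 242.9, 647 against 323.4, 587 against 297.4, 337.6 against 337.2 and 413 against 148.4. In PdgfraGFP cells, which give 25 of the 64 cells of cluster 2, Rps14 was thus level between the clusters while the other lines were higher. Rpl32 and Rps19 were also higher in 5 of 5 lines, by log2 ratios of 0.90 ± 0.40 and 0.85 ± 0.37, and least so in PdgfraGFP, at 0.27 and 0.22.

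**Figure D4:**
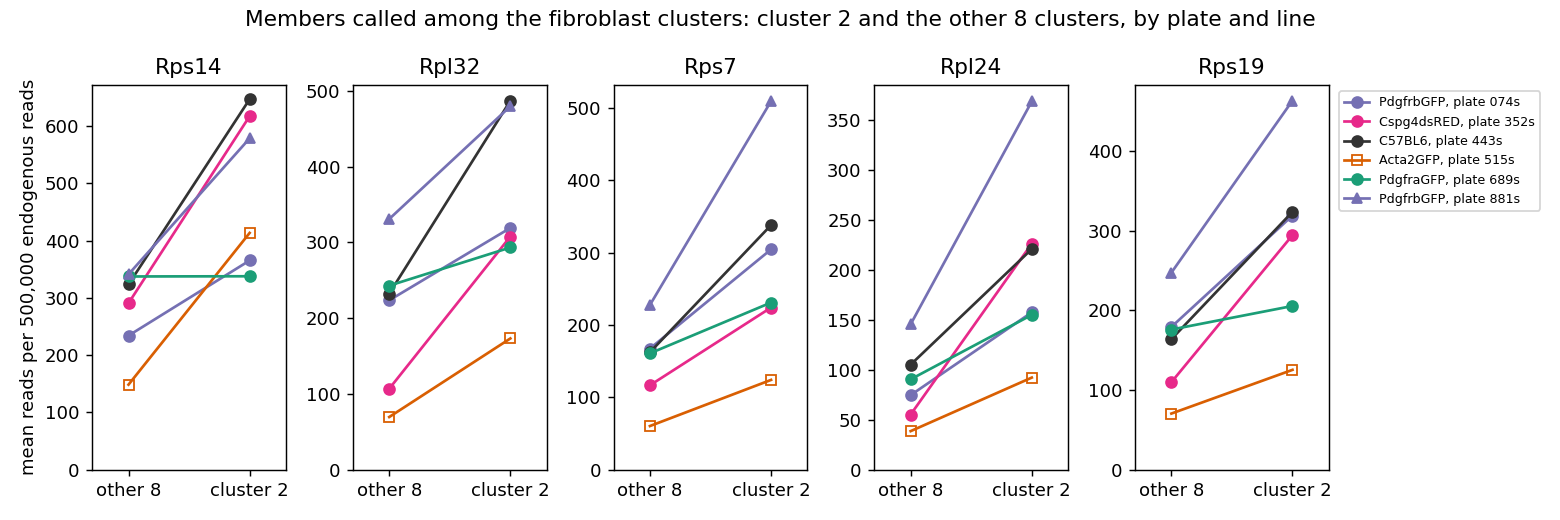
Levels (reads per 500000 endogenous reads, mean over cells) of the 5 called members in the other 8 fibroblast clusters and in cluster 2, joined within each of 6 groups of plate and line with at least 3 cells of cluster 2. Every line rises to the right except that of Rps14 in PdgfraGFP cells, which stays at 337.2 and 337.6.

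The number of members called depended on how reads were summed. With sums per plate and line, 47 of 81 members were called, against 6.12% of 17604 genes, all 47 highest in cluster 2 and 29 lowest in cluster 6. DESeq2 on sums per line called 35 of 80, against 6.09% of genes. With cluster 2 left out of the sums per plate and line, edgeR called 0 of 82 members, against 3.87% of genes, with 3 at an unadjusted p under 0.05 (DESeq2 was not run there). In cells of 100000 to 300000 reads 0 of 80 were called, with 0 at an unadjusted p under 0.05, against 1.21% of genes, and in cells thinned to 50000 reads 0 of 80, with 4, against 1.86%. Without Acta2GFP, C57BL6 or PdgfrbGFP the count was 0, with 19, 10 and 4 at an unadjusted p under 0.05, and the share of all genes called fell too, to 1.01%, 0.483% and 0.324%. Without Cspg4dsRED or PdgfraGFP it was 7 and 9, against 1.63% and 1.77% of genes. Without the line as a block 0 of 80 members were called, with 14 at an unadjusted p under 0.05, although 7.26% of genes were. By fitted difference, 79 of 80 members lay above the mean of the clusters in cluster 2, with a median of 0.92, beside -0.25 over other genes, and 75 of 80 had their highest value there. By level, 51 of 80 members were higher in cluster 2 in all 5 lines and 46 in all 6 groups of plate and line, and 69 of 80 were lower in cluster 3 in all 4 lines and 52 in all 6 groups. The share of all genes with the same sign throughout is not given here, so these counts do not show a trait particular to the members.

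Cells of cluster 2 also differed in ways that are not particular to the members. Their depth was 0.428 to 0.787 times that of the other 8 clusters in the same group of plate and line, and their median depth was 109301 reads. Mitochondrial genes took 1.75% to 3.08% of their reads against 0.951% to 2.12%, higher in 6 of 6 groups. Endogenous reads per spike-in read were lower in 5 of 6 groups, with a median ratio of 0.646, and members' reads per spike-in read had a median ratio of 0.920, from 0.466 to 1.32, below 1 in 4 of 6. In PdgfraGFP cells, 25 of the 64 cells of cluster 2, these ratios were 1.004 for endogenous reads and 0.9998 for the members. Length moved here too: over 4 groups of plate and line the members' median log2 ratio of cluster 2 to the other 8 clusters ran from 0.23 in PdgfraGFP to 0.97 in C57BL6 cells, against -1.26 to -0.45 for other genes, and lay above theirs in each. Among genes of at most 500 bases it was 1.42 against 1.68 in C57BL6, where it was highest, and 0.34 against 0.36 in PdgfraGFP, where it was lowest. At 2000 to 4000 bases it was 0.46 against -1.25 and 0.16 against -0.50 in these lines. What part length, depth and RNA quality have in the members' difference was not tested.

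Markers of the bladder lining were measured in these cells as well. Of 10 urothelial markers 4 had a higher mean level in cluster 2 than in the other 8 clusters, Upk1b, Upk3a, Krt5 and Krt19, while Epcam, Cdh1 and Krt20 were at 0 there. Krt19, an epithelial keratin, had a mean level of 29.1 in cluster 2 against 4.85 over all cells of the 9 clusters, and Krt5, a keratin of basal cells, had a read in 21.9% of its cells against 8.92%. Their summed level ran over lines from 0.251 to 119.9 reads per 500000 in cluster 2 and from 1.21 to 66.95 in the other 8 clusters, and was higher in cluster 2 in 2 of 5 lines. Among the 9 clusters edgeR called 0 of the 5 tested, with 1 at an unadjusted p under 0.05. The part of these markers in the members' difference was not tested.

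**Figure D5:**
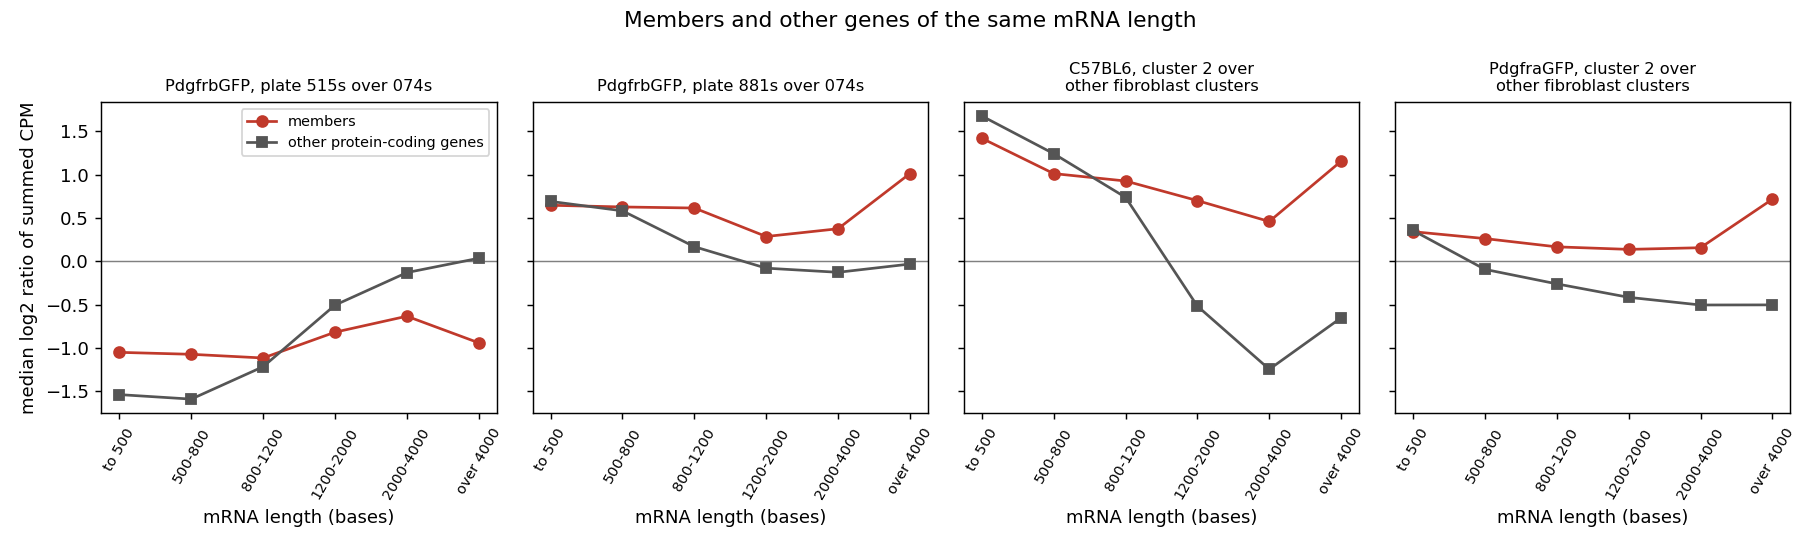
Median log2 ratio of summed CPM by mRNA length, for members and for other protein-coding genes of the same length. On plate bladder_515s over bladder_074s short genes of both kinds fall, to -1.05 and -1.54 at up to 500 bases, and in cluster 2 over the other 8 clusters short genes of both kinds rise, to 1.42 and 1.68 in C57BL6 cells, while the medians part at 2000 to 4000 bases, 0.46 against -1.25 (over 4000 bases there is 1 member, Rps15a).

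Of the related lists, 1 of 19 translation genes was called among the 9 clusters, Npm1 (adjusted p = 0.0454), a nucleolar chaperone of ribosome assembly, and with sums per plate and line 4 of 19 were, led by Npm1, Tpt1 and Fau. Of 22 ribosome biogenesis genes 0 were called in edgeR by either sum, with 0 at an unadjusted p under 0.05. Of 8 immediate-early genes 5 were called, led by Egr1, Junb and Fos. Of 9 fibroblast markers 6 were called, led by Col1a2, Col1a1 and Fbln1. Of the endothelial list 1 of 6 tested was called, Kdr (adjusted p = 0.0246), a receptor for VEGF, and with sums per plate and line it was again the 1 called (1 of 8, adjusted p = 0.00043). The F test does not say which cluster differs. Kdr had a mean level of 1.49 in cluster 2 against 6.38 over all cells of the 9 clusters. It had a read in 23.4% of cells against 21.3%. Of the 8 endothelial markers 5 had a higher mean level in cluster 2 than in the other 8 clusters. Their summed level was higher there in 1 of 5 lines. Of the mural list 0 of 8 were called, with 1 at an unadjusted p under 0.05.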

How the data were processed

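The study's methods state that reads of 50 bases were trimmed with Trim Galore, aligned to GRCm38 with TopHat2 on Bowtie, cleared with samtools of what the study calls doublets and counted per gene with featureCounts. The annotation release and the strand setting are not given in the sources used here. The deposited table holds whole-number counts, per gene and cell, not normalized by the authors, who had already filtered the cells. Counts were summed per line and cluster, or per plate and line, where a class had at least 3 cells. edgeR 4.0.16 (TMM, filterByExpr, glmQLFTest, line as a block, R 4.3.3) was fitted over all genes with Benjamini-Hochberg adjustment and a threshold of 0.05, after it was tested on simulated data, and DESeq2 1.42.0 was an alternative. The block by line pairs sums of 1 line. PdgfrbGFP sums pool 3 plates and Cspg4dsRED sums pool 2, and clusters draw on these plates in different parts. The tests on sums per line and the shares by line thus do not hold plate constant in these 2 lines. Summed shares are means over cells and then over lines, with no test. Levels per length use 1 reference transcript per gene (GENCODE M21). Members and lists were chosen with earlier results of these data known. Genes were named by rule: the 5 highest and 5 lowest per exon length, second copies with their namesakes, up to 4 called members per direction for clusters 10 and 5, the 5 called members of lowest p among the other clusters, the 3 members most and least often near a full read coverage, and up to 3 called genes of each list by lowest p. Pseudogenes of ribosomal proteins were kept out of the members. Some genes are not reported here.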

Additional observations from a re-analysis of the deposited data

Results flagged for a closer look

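Among 46 groups of 4 to 8 lines or groups of plate and line examined for a value far from the rest, 7 were marked, where chance marks about 1 in 20. The difference in summed share between cluster 10 and the fibroblasts was 0.534 percentage points in C57BL6 cells, from 3 cells of cluster 10, while the other 3 lines lay between -0.423 and -0.344, and the same value stood apart among the 7 groups of plate and line, where the others lay between -0.573 and -0.203. The slope of the share on depth was -1.08 percentage points per doubling on plate bladder_881s, while the other 7 groups lay between -0.290 and 0.0891. Rpl7 had a level per kb of 94.4 in Acta2GFP cells, all of plate bladder_515s, and 150.3 to 161.4 in the other lines. The level per kb of Rpl3l was 0.0499 in PdgfrbGFP and 0 in the other lines. That of Rpl10l was 0.112 in C57BL6 and at most 0.00888 elsewhere, and that of Rpl39l was 0.312 in PdgfrbGFP and at most 0.0895 elsewhere, each from the few cells named above.

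Reads also lay outside the members in pseudogenes of ribosomal proteins, which none of the comparisons used. There were 50679 such reads, in 1444 of 1479 cells, and they took 0.0117% of the endogenous reads of a cell on average and at most 0.205%. By plate and line the mean ran from 0.00518% to 0.0201%. There is no control sample for them, and reads of the members that were placed on a pseudogene cannot be told apart from transcripts of the pseudogene.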

How the results depend on the processing

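For clusters 10 and 5, 0 members were called under each alternative run, leaving out a line included. Of the values recomputed under alternatives, 82 were counted as the same and 21 as changed. Some of these values, such as the range of the summed share over the 9 clusters, have no direction and no threshold. A value counted as changed thus need not have turned in direction or crossed a threshold. The planned removal of members with a median over 0.5 reads per exon base removed none and is not counted. The number of members called among the 9 other fibroblast clusters, 5, did not hold: it was 35 with DESeq2, 47 with sums per plate and line, 0 with no filter on low counts (1.68% of genes called), 0 in cells of 100000 to 300000 reads, 0 in cells thinned to 50000 reads, and 0 to 9 when 1 line was left out. Without the line as a block, thus without pairing sums of the same line, it was 0, while the share of all genes called rose to 7.26%. Of alternatives chosen after seeing the data, sums per plate and line gave 9 without plate bladder_515s (3.09% of genes called), 0 in cells of 100000 to 300000 reads (2.35%) and 0 without cluster 2. The cause was not tested, though the depth window and the left-out lines also take away cells or sums. The median log2 fold change of the members in cluster 10, -0.23, ran from -0.36 to -0.07 when 1 line was left out and turned to 0.068 with median-of-ratios size factors, 0.068 with DESeq2, 0.0095 without the block and 0.70 with the median gene at 0. In cluster 5, -0.31 turned to 0.45 with the median gene at 0. That setting by design moves all genes together, in cluster 10 too, so the turn in sign is no result about the members. The difference in summed share of cluster 10, -0.162 percentage points, ran from -0.395 to -0.0753 when 1 line was left out, and was 0.0023 as a share of summed reads and 0.0726 without plate bladder_515s, chosen after seeing the data. That of cluster 5, -0.220, ran from -0.403 to 0.0805 when 1 line was left out, the last without PdgfraGFP. The range of the summed share over the 9 clusters, 1.45 percentage points, ran from 1.28 to 1.59 when 1 line was left out and from 1.196 adjusted for depth to 1.62 as a share of summed reads over the other alternatives. The rare copies Rpl3l, Rpl10l and Rpl39l did not pass the filter in some fits, and whether depth limits their counts was not tested.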
